A study of Homo sapiens with 6 samples.

Results

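Epithelial-mesenchymal transition (EMT) is the program by which epithelial cells give up junctions and polarity and take on the shape, matrix and motility of mesenchymal cells. It is driven by transcription factors of the SNAI, ZEB and TWIST families, which repress epithelial genes such as the E-cadherin gene CDH1, and it is read out by vimentin, N-cadherin and matrix proteins such as fibronectin. Carcinoma cells, oral squamous carcinoma among them, often hold a partial form in which matrix genes are active while E-cadherin is kept. The genes described here are 5 transcription factors (SNAI1, SNAI2, ZEB1, ZEB2 and TWIST1) and 4 markers (VIM, CDH2, FN1 and TGFBI), chosen by name as the commonly used EMT factors and mesenchymal markers. Each symbol had 1 row, so they make up 9 of the 61859 genes of the deposited table.

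RNA was sequenced from OSC19SSZR cells, a sulfasalazine-resistant oral squamous cell carcinoma line; sulfasalazine blocks cystine uptake. The groups were FOXA1 siRNA (n = 3) and control siRNA (n = 3), both in the resistant line, both transfected by lipid reagent and both harvested at 48 h. FOXA1 is a pioneer factor of the forkhead family. All libraries come from 1 cell line, and the labels do not say that replicates were separate cultures, so the spread on which the p-values rest may be only technical.

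FOXA1 itself had 247, 192 and 189 normalized counts (gene counts divided by a size factor of each library) with FOXA1 siRNA, against 1477, 1378 and 1459 with control siRNA. The groups did not overlap, and FOXA1 was left at 14.5% of control (exact permutation test, two-sided p = 0.1, the smallest that 3 against 3 can give). Libraries held between 16510125 and 25732569 reads, the deepest being FOXA1 siRNA replicate 2. Over the 18460 genes with a mean of at least 10 normalized counts, limma with Benjamini-Hochberg adjustment at 0.05 called 51.8%, with 26.8% higher and 25% lower after FOXA1 siRNA. All 8 squamous epithelial markers were above that minimum, whereas the fibroblast markers DCN, LUM and PDGFRA had no read in any library. The endothelial marker CDH5 (mean 421) and the leukocyte marker CD68 (mean 91.4) were above it too. Among the squamous markers, KRT6A had 802 normalized counts in control siRNA replicate 3, against 38.3 to 178 in the other libraries. Fibroblast markers summed to between 92.5 and 141 normalized counts with FOXA1 siRNA and between 148 and 166 with control siRNA, mostly through COL1A1, which was itself lower (log2 fold change -0.52, adjusted p = 0.00412).

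Of the 9 genes, 5 were abundant enough to be tested, and 3 of those 5 were called higher (FN1, TGFBI and SNAI2). Over all tested genes 26.8% were called higher, a share not matched for level. In the level range of FN1 and TGFBI (3000 normalized counts and up) the share called higher was 59.3%. It was 31.8% in the range of SNAI2 (200 to 1000), 15.7% in that of TWIST1 (50 to 200) and 7.27% in that of CDH2 (10 to 50). Of the 5, 0 were called lower by limma, edgeR or DESeq2, and 0 were lower at an unadjusted limma p under 0.05. The same 3 were called by edgeR, which called 51.7% of tested genes (25.7% higher and 26% lower), and by DESeq2, which called 46% (23.5% higher and 22.5% lower). By DESeq2, SNAI2 passed only narrowly (adjusted p = 0.0487). Quantile normalization called 51.1% (27% higher and 24.1% lower) and kept FN1 and SNAI2, and equal library totals called 51.8% (19.5% higher and 32.3% lower) and kept FN1 and TGFBI. The groups of FN1, TGFBI and SNAI2 did not overlap, which held for 57.6% of tested genes, made up of 29.5% higher and the rest lower. TWIST1 and CDH2 did not pass, SNAI1, ZEB1 and VIM had a few reads per library, and ZEB2 had none. In bulk RNA, a change in the number of expressing cells and a change in RNA per cell cannot be told apart.

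**Figure D1:**
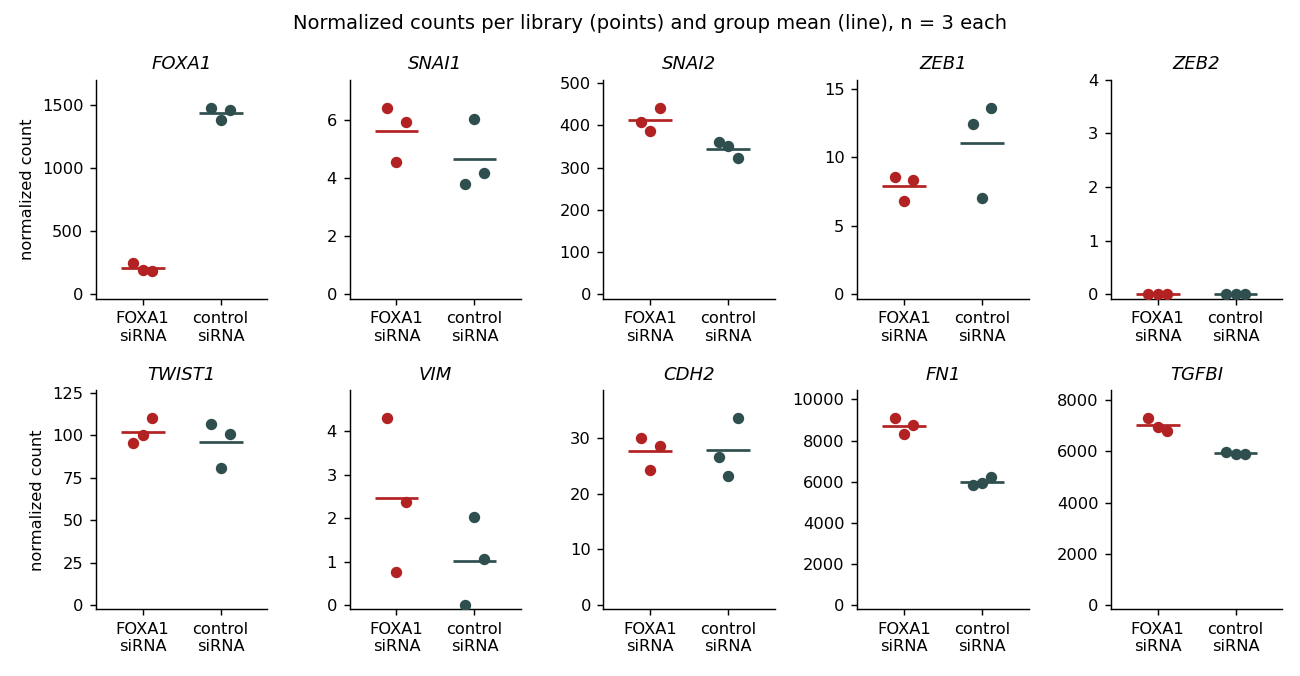
Normalized counts of FOXA1 and the 9 EMT genes in each library (points; line, group mean; n = 3 per group; linear axes that differ between panels), FOXA1 siRNA left of control siRNA. FN1, TGFBI and SNAI2 were higher in all 3 FOXA1 siRNA libraries than in any control library, whereas the groups overlapped for SNAI1, ZEB1, TWIST1, VIM and CDH2, and ZEB2 was at 0 throughout.

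Among the transcription factors, SNAI2 had the highest level per kilobase of transcript. SNAI2 (SLUG; ENSG00000019549; GRCh38 chromosome 8, 48917604 to 48921740, minus strand) is a zinc finger repressor of E-cadherin that basal cells of stratified epithelia also use. It had 409, 386 and 442 normalized counts with FOXA1 siRNA, against 361, 352 and 322 with control siRNA, so the groups did not overlap. The mean was 413 ± 28.2 with FOXA1 siRNA and 345 ± 20.5 with control siRNA (SD, n = 3 each), a log2 fold change of 0.26 ± 0.09 (SE; limma adjusted p = 0.0137; 95% interval 0.08 to 0.43). The call was not firm. It was lost without FOXA1 siRNA replicate 3 (adjusted p = 0.0625), without control siRNA replicate 3 (adjusted p = 0.0792) and with libraries scaled to equal totals (log2 fold change 0.16, adjusted p = 0.122), over a range of 0.0109 to 0.122 in 17 alternatives. With DESeq2 on the recovered reads the adjusted p of SNAI2 was 0.0487, just under the threshold. In the authors' deposited table the adjusted p of SNAI2 was 0.0637, which did not pass.

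TWIST1 (ENSG00000122691; chromosome 7, 19020991 to 19117672, minus strand) is a basic helix-loop-helix factor that induces N-cadherin in many EMT models. It had 95.4, 100 and 110 normalized counts with FOXA1 siRNA, against 107, 80.7 and 101 with control siRNA, and the groups overlapped. A log2 fold change of 0.09 ± 0.15 (SE) did not pass (limma adjusted p = 0.667; 95% interval -0.23 to 0.40). The sign turned with equal library totals (-0.01) and without control siRNA replicate 2 (-0.04).

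SNAI1 (SNAIL; ENSG00000124216; chromosome 20, 49982999 to 49988886, plus strand), the founding E-cadherin repressor of the family, was barely detected. It had 6, 6 and 5 reads with FOXA1 siRNA, against 4, 6 and 4 with control siRNA, which sum to 17 reads with FOXA1 siRNA and 14 with control siRNA. Corrected by the size factors, the ratio was 1.18 with a 95% exact interval of 0.546 to 2.58 that covers counting error only, so a difference was not detectable at this depth. Without a filter on low values its adjusted p by limma was 0.787. SNAI2 exceeded SNAI1 by 38 to 50.6 times per kilobase with FOXA1 siRNA and by 34.7 to 56.6 times with control siRNA.

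The ZEB factors are zinc finger and homeodomain repressors that are held down in epithelia by the miR-200 family and miR-205, whose sites lie in their 3′ UTRs. The mature miRNAs were not measured here, but their host transcripts MIR200CHG (for miR-200c and miR-141) and MIR205HG were. The mature sequences are shown because their seeds (bases 2 to 8, in capitals) define the sites counted in the ZEB transcripts; all 3 seeds differ. They were taken from RefSeq on GRCh38.p14.
hsa-miR-200c-3p: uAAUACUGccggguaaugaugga
hsa-miR-141-3p: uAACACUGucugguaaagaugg
hsa-miR-205-5p: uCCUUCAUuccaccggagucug

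Words complementary to these seeds are CAGTATT for miR-200c, CAGTGTT for miR-141 and ATGAAGG for miR-205. They were searched on the transcript strand of the longest protein-coding 3′ UTR of each gene in GENCODE 29 (GRCh38). ZEB1 held 6, 3 and 1 of them and ZEB2 held 5, 4 and 0. Shorter matches to the seeds were not searched, so the 0 in ZEB2 covers the full miR-205 word only. FN1 held 2 miR-200c words, SNAI2 and TGFBI held 1 each, and SNAI1, TWIST1, VIM and CDH2 held none of the 3 words. Among 18805 UTRs, 16.3% held CAGTATT at least once, 18.7% CAGTGTT and 11.9% ATGAAGG, and 0.856% held CAGTATT at least 3 times. UTR lengths differ (2549 bases for ZEB1, 5370 for ZEB2 and 1115 for FN1), and a word is a description, not a site in use. Examples of the words in their surroundings follow, with the word in capitals.
ZEB1, miR-200c word: tttatcttatCAGTATTatcactct
ZEB1, miR-141 word: tttgatttaaCAGTGTTatgttaac
ZEB1, miR-205 word: gtggtaacatATGAAGGatatgaca
ZEB2, miR-200c word: taccatacatCAGTATTtttattat
ZEB2, miR-141 word: aaattttgtaCAGTGTTaaggccta
FN1, miR-200c word: caatttttccCAGTATTtttatacg

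ZEB1 (ENSG00000148516; chromosome 10, 31318495 to 31529814, plus strand) had 8, 9 and 7 reads with FOXA1 siRNA, against 13, 7 and 13 with control siRNA. Those sum to 24 reads with FOXA1 siRNA and 33 with control siRNA, and control replicate 2 lay within the FOXA1 siRNA range. The size-factor-corrected ratio was 0.705 with a 95% exact interval of 0.399 to 1.23, so a difference was not detectable at this depth (log2 fold change -0.39 without a filter, limma adjusted p = 0.615). ZEB1-AS1, which overlaps ZEB1 on the opposite strand, had 19.3, 24.3 and 21.3 normalized counts with FOXA1 siRNA, against 26.6, 14.1 and 23 with control siRNA. The sources used here do not say whether counting used strand, so reads of the pair cannot be told apart.

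ZEB2 (ENSG00000169554; chromosome 2, 144364364 to 144524583, minus strand) had 0 of 60130906 reads with FOXA1 siRNA and 0 of 54442387 with control siRNA. A count of 0 allows up to 3 reads per library, which is 2.28 to 3.56 normalized counts with FOXA1 siRNA and 2.85 to 3.14 with control siRNA. Its antisense partner ZEB2-AS1 was also at 0 in all libraries.

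The host transcripts of the miRNAs were lower. MIR200CHG had 41.8, 41.7 and 33.2 normalized counts with FOXA1 siRNA, against 86.5, 62.5 and 61.7 with control siRNA (log2 fold change -0.83 ± 0.21 SE, limma adjusted p = 0.00141), and the groups did not overlap. MIR205HG averaged 3140 ± 195 with FOXA1 siRNA and 4311 ± 103 with control siRNA (SD, n = 3 each), a log2 fold change of -0.46 at a limma adjusted p of 1.59e-08. A host transcript is not a measure of the mature miRNA.

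Among the tested markers, FN1 had the largest difference. FN1 (ENSG00000115414; chromosome 2, 215360440 to 215436172, minus strand) encodes fibronectin, a matrix glycoprotein bound by integrins. It had 9074, 8297 and 8778 normalized counts with FOXA1 siRNA, against 5815, 5926 and 6224 with control siRNA, and the lowest FOXA1 siRNA library lay well above the highest control library. The mean was 8716 ± 392 with FOXA1 siRNA and 5988 ± 212 with control siRNA (SD, n = 3 each), a 1.46-fold difference (95% interval 1.36 to 1.56; log2 fold change 0.54 ± 0.05 SE; limma adjusted p = 1.51e-10). It passed in 17 of 17 alternatives, and was 0.44 with equal library totals and 0.36 with quantile normalization on the log2 scale.

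TGFBI (ENSG00000120708; chromosome 5, 136028895 to 136063818, plus strand) encodes a secreted matrix protein induced by TGF-beta that binds integrins and collagen. It had 7289, 6966 and 6791 normalized counts with FOXA1 siRNA, against 5991, 5891 and 5898 with control siRNA, without overlap. FOXA1 siRNA libraries averaged 7015 ± 252 and control siRNA libraries 5927 ± 55.5 (SD, n = 3 each), a 1.18-fold difference (95% interval 1.11 to 1.26; log2 fold change 0.24 ± 0.05 SE; limma adjusted p = 5.17e-05). With quantile normalization it was 0.06 on the log2 scale and no longer passed (adjusted p = 0.285).

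On the deposited scale, differences ran higher among abundant genes. The 1052 tested genes with a mean of at least 3000 normalized counts had a median log2 fold change of 0.19, whereas the 3947 genes between 10 and 50 had a median of -0.19. With equal library totals the medians were 0.10 and -0.28, and with quantile normalization, which gives all libraries the same distribution of values, both were 0.04. Of the 1052, 44.9% had a log2 fold change at or above that of TGFBI and 12% at or above that of FN1. SNAI2 lay in the range of 200 to 1000, where the median was 0.03 and 25.8% of genes were at or above it. The share called higher rose with level too, from 7.27% between 10 and 50 to 43.8% between 1000 and 3000 and 59.3% from 3000 up. Shares called lower in those ranges were 20%, 23.8% and 18%. The all-gene shares set beside the 9 genes above and the lists below are not matched for level. The part of this trend in the results was not tested beyond the scalings given.

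**Figure D2:**
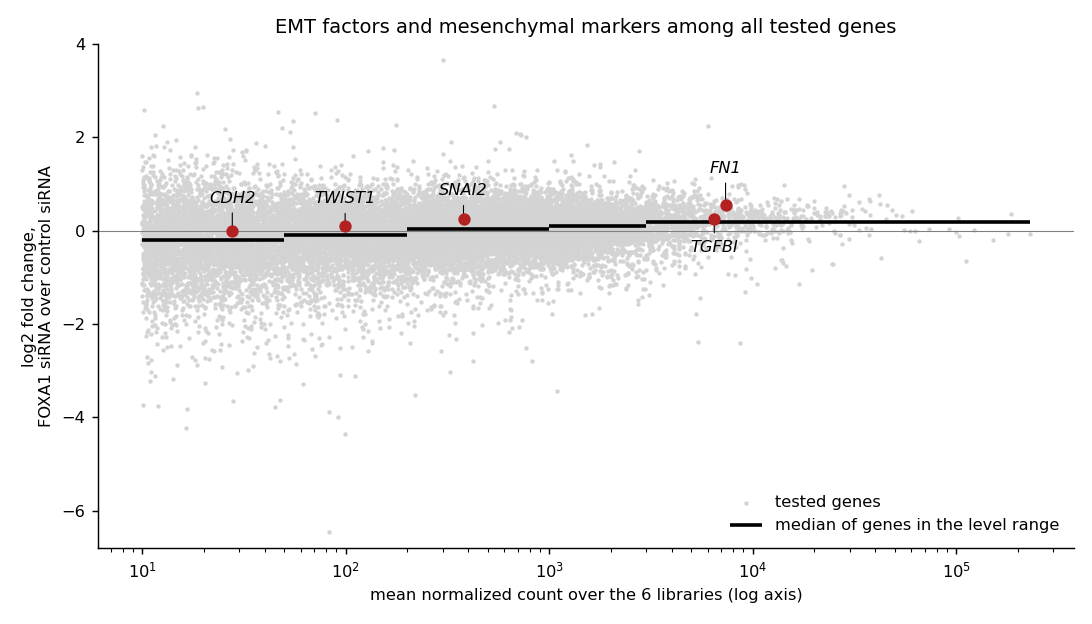
Log2 fold change of FOXA1 siRNA over control siRNA against the mean normalized count over 6 libraries (log axis) for the 18460 tested genes (grey), the 5 tested EMT genes (red) and the median of each level range (black lines). TGFBI sat close to the median of its range (0.24 against 0.19) and FN1 above it (0.54).

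**Figure D3:**
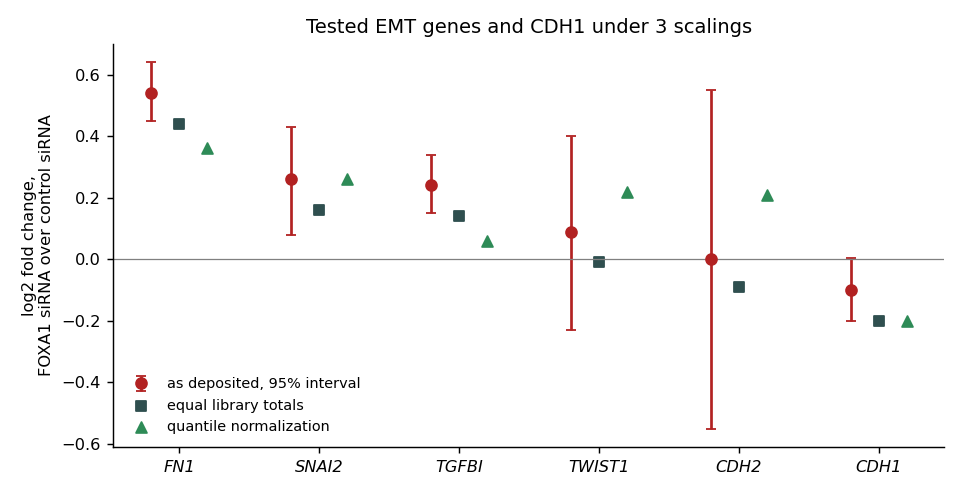
Log2 fold change of FOXA1 siRNA over control siRNA for the 5 tested EMT genes and CDH1, from the deposited values (circles with 95% interval), with equal library totals (squares) and with quantile normalization (triangles). FN1 stayed above 0.3 under each scaling, TGFBI dropped to 0.06 with quantile normalization, and TWIST1 and CDH2 lay on both sides of 0.

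FN1 and TGFBI did not move by the same amount. Within a library, the log2 ratio of TGFBI over FN1 was -0.32, -0.25 and -0.37 with FOXA1 siRNA, against 0.04, -0.0084 and -0.08 with control siRNA. The difference was -0.30, without overlap, at the smallest p that the exact permutation test can give (two-sided p = 0.1; 0.5 after Benjamini-Hochberg adjustment over 5 ratios). A factor that scales a whole library cancels in this ratio.

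The 250 bases before the start of FN1 and TGFBI are shown because these are the most abundant of the 9 genes and both were called higher after FOXA1 siRNA. They were taken from RefSeq (GRCh38.p14), which gave promoters for 6 of the 9 genes; SNAI1, SNAI2 and TWIST1 are not shown. The windows end at the RefSeq start, which lies downstream of the outermost GENCODE start given above for each gene, so part of each window falls within the GENCODE gene. Capitals mark a cAMP response element (TGACGTCA), a CCAAT box (CCAAT), GC boxes (GGGCGG on either strand) and a TATA-like word (TATAAA or TATAAG), words chosen after the sequences were seen; adjoining capitals are overlapping or adjacent GC boxes.
FN1, chr2:215436069-215436318, minus strand: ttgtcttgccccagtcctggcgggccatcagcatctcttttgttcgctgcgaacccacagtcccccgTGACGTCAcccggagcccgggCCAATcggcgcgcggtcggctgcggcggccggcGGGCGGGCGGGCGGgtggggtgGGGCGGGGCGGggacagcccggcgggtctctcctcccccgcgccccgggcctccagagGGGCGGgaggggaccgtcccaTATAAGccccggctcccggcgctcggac
TGFBI, chr5:136028738-136028987, plus strand: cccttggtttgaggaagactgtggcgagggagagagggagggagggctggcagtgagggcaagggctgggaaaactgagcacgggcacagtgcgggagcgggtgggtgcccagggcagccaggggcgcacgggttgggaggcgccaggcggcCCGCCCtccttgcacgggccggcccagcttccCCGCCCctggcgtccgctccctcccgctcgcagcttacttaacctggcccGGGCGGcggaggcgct

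Neither window held the forkhead words TGTTTAC or TGTTTGC, which FOXA factors are known to bind, or the E-box CACCTG that SNAI and ZEB factors are known to bind, on either strand. Among 35116 promoters of the same length, 6.09% held a forkhead word, 17.5% the E-box, 1.65% the cAMP response element, 32% a CCAAT box, 42.6% a GC box and 14.2% the TATA-like word. G and C made up 76.4% of the FN1 window and 72.8% of the TGFBI window, against a median of 58% over all promoters (upper quartile 68%). The shares are not matched for this. In the FN1 window the cAMP response element began at -183, the CCAAT box at -162 and the TATA-like word at -28, counted from the first base before the start. FN1 held 6 GC boxes and TGFBI 3. Of the other promoters in the table, 1 of the promoters listed for CDH2 held a forkhead word at -185, and among those listed for ZEB1 an E-box began at -57 in one and others lay further up in another. Absence of a word says only that those letters are not in the window.

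CDH2 (N-cadherin; ENSG00000170558; chromosome 18, 27950966 to 28177446, minus strand) is the cadherin that replaces E-cadherin in a full EMT. It had 30.0, 24.3 and 28.5 normalized counts with FOXA1 siRNA, against 26.6, 23.2 and 33.5 with control siRNA, and the FOXA1 siRNA values lay within the control range. The log2 fold change was 0.0011 (limma adjusted p = 0.998), and the 95% interval of -0.55 to 0.55 leaves room for a change of 0.683 to 1.47 times. It rests on 84 reads with FOXA1 siRNA and 83 with control siRNA.

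VIM (vimentin; ENSG00000026025; chromosome 10, 17228259 to 17237593, plus strand), the intermediate filament of mesenchymal cells, was close to absent. It had 4, 1 and 2 reads with FOXA1 siRNA, against 0, 2 and 1 with control siRNA, which sum to 7 reads with FOXA1 siRNA and 3 with control siRNA. The size-factor-corrected ratio was 2.26 with a 95% exact interval of 0.516 to 13.6, so a difference was not detectable (limma adjusted p = 0.484 without a filter). VIM-AS1 overlaps it on the opposite strand and had at most 3.22 normalized counts in any library.

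The 9 genes spanned more than 3 orders of magnitude in level. In normalized counts per kilobase of the longest transcript, FOXA1 siRNA libraries averaged 1505 for TGFBI, 950 for FN1, 146 for SNAI2, 61.2 for TWIST1, 6.37 for CDH2, 3.34 for SNAI1, 1.26 for ZEB1 and 0.928 for VIM, with ZEB2 at 0. Control siRNA libraries averaged 1272 for TGFBI, 653 for FN1, 122 for SNAI2, 58 for TWIST1, 6.41 for CDH2, 2.78 for SNAI1, 1.76 for ZEB1 and 0.383 for VIM, with ZEB2 at 0. The order was the same in both groups, and also with the longest protein-coding transcript as the length, an alternative chosen after seeing the data. From TGFBI to CDH2 neighbours in that order did not overlap in either group, nor did CDH2 and SNAI1. SNAI1 and ZEB1, with few reads, did not overlap either, ZEB1 and VIM overlapped with FOXA1 siRNA, and VIM and ZEB2 overlapped at 0 with control siRNA. Among 17958 tested genes with a transcript length, TGFBI ranked 858 to 954 with FOXA1 siRNA and 993 to 999 with control siRNA, and CDH2 ranked 16763 to 17001 with FOXA1 siRNA and 16889 to 17309 with control siRNA.

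E-cadherin outweighed N-cadherin in every library. CDH1 had 2949, 2721 and 2813 normalized counts with FOXA1 siRNA, against 2895, 3077 and 3117 with control siRNA. CDH1 exceeded CDH2 per kilobase by 87.1 to 99.3 times with FOXA1 siRNA and by 82.5 to 118 times with control siRNA. The log2 ratio of CDH2 over CDH1 differed by 0.10 between the groups (exact permutation test, two-sided p = 0.7). CDH1 did not pass on the deposited scale (log2 fold change -0.10, limma adjusted p = 0.102), but was called lower with equal library totals (-0.20, adjusted p = 0.00233) and with quantile normalization (-0.20, adjusted p = 0.00165). The SNAI2 over SNAI1, ZEB1 over ZEB2 and FN1 over VIM log2 ratios differed by 0.02, -0.39 and -0.24 (exact permutation p = 0.9, 0.3 and 0.7).

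**Figure D4:**
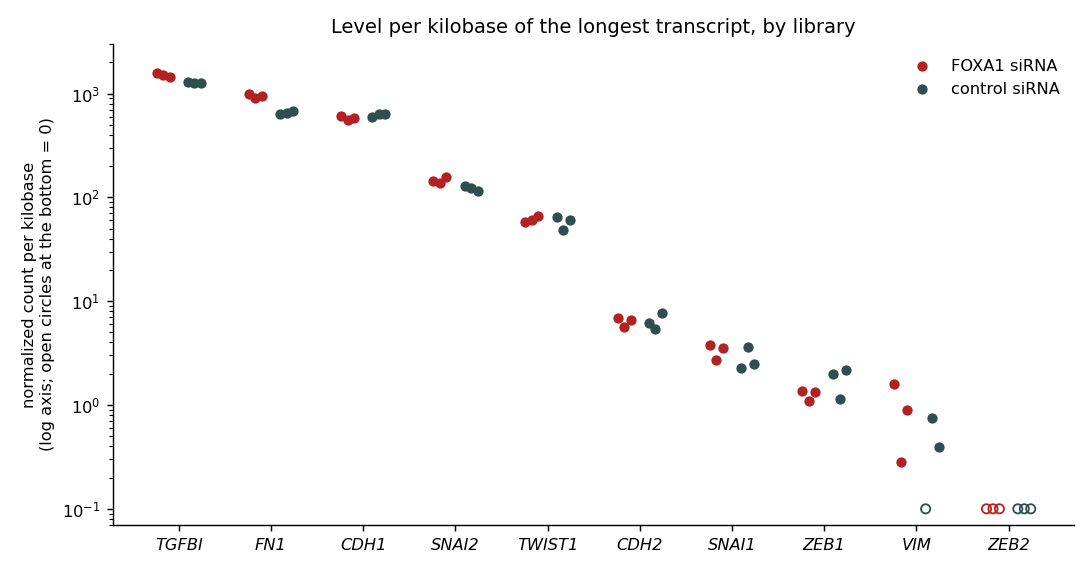
Normalized count per kilobase of the longest transcript in each library (log axis) for the 9 EMT genes and CDH1, FOXA1 siRNA (red) left of control siRNA (dark grey); open circles at the bottom stand for 0. TGFBI, FN1 and CDH1 stood above 500 in all libraries, SNAI2 and TWIST1 between 40 and 200, and the other genes below 10.

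The patterns most like those of FN1, TGFBI, SNAI2 and TWIST1 over the 6 libraries were found by root mean square distance of log2 values, each centred on its own mean, among 12094 genes. For FN1 they were MTOR (0.016), NUP98 (0.023) and ZNF891 (0.024), against a median distance of 0.281. For TGFBI they were MUL1, C1QTNF6 and ATG101 (0.019 each; median 0.184), and for SNAI2 MED9 (0.021), ERRFI1 and INTS8 (0.026 each; median 0.199). For TWIST1 they were CRNDE (0.036), CASP10 (0.039) and SETDB2 (0.043; median 0.217). The genes closest to FN1 had log2 fold changes of 0.53 to 0.57, those closest to TGFBI 0.23 to 0.28 and those closest to SNAI2 0.24 to 0.28. The distance includes the difference between the groups, so similar fold changes follow from how these genes were picked. As the closest of 12094, they also lie under the median distance by selection.

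Around these genes, the other EMT regulators moved both ways. Of 23 listed factors 14 were tested, 4 were called higher and 6 lower (71.4% called, against 51.8% of all tested genes), with a median log2 fold change of -0.21 beside 0.0039 over all tested genes. SOX4, a factor that promotes EMT in breast epithelium, averaged 1222 ± 68 normalized counts with FOXA1 siRNA and 2750 ± 121 with control siRNA (log2 fold change -1.17, limma adjusted p = 7.94e-16). FOXQ1 (-0.42, adjusted p = 0.00469) and RUNX2 (-0.33, adjusted p = 0.0294) were also lower, though RUNX2 did not pass with quantile normalization (-0.20, adjusted p = 0.188). ID1, an inhibitor of basic helix-loop-helix factors, averaged 857 ± 68.5 with FOXA1 siRNA and 436 ± 16.3 with control siRNA (0.97, adjusted p = 1.21e-11), and SOX9 (0.51) and the E-protein TCF3 (0.38) were higher. TWIST2, PRRX1, PRRX2, SOX11 and GSC had no reads.

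Of 15 guardians of the epithelial state, which oppose EMT, 4 were called higher and 7 lower (26.8% and 25% of all tested genes were; median -0.02). ESRP1, the epithelial splicing regulator, had 2689, 2585 and 2736 normalized counts with FOXA1 siRNA, against 1279, 1220 and 1312 with control siRNA (log2 fold change 1.07, limma adjusted p = 1.71e-15), whereas its paralog ESRP2 did not pass (-0.02). Of the grainyhead factors, GRHL1 was higher (0.70, adjusted p = 1.58e-06), and GRHL2 (-0.16, adjusted p = 0.0127) and GRHL3 (-1.16, adjusted p = 9.38e-08) were lower. OVOL2, a repressor of ZEB1, had 1634, 1633 and 2274 normalized counts with FOXA1 siRNA, against 1142, 1262 and 1091 with control siRNA (log2 fold change 0.65, adjusted p = 0.0188), and OVOL1 gave 0.77 without passing (adjusted p = 0.104), but passed with quantile normalization (1.03, adjusted p = 0.0337). At an adjusted p of 0.01, 7 of the 15 passed, beside 7498 of the 18460 tested genes.

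Of 25 tested epithelial genes that SNAI and ZEB factors repress, 14 were called higher and 6 lower (80% called, against 51.8% of all tested genes; median 0.14), but with equal library totals 9 were higher and 8 lower, and with quantile normalization 8 and 8. The 51.8% is not matched for level. Of tested genes with a mean of 1000 to 3000 normalized counts, 43.8% were called higher and 23.8% lower. From 3000 up, 59.3% were higher and 18% lower. MAL2 (0.88), the lipoprotein receptor LSR (0.55) and the tight junction gene MARVELD3 (0.47) were higher. The membrane protease matriptase ST14 averaged 1107 ± 73.7 normalized counts with FOXA1 siRNA and 2807 ± 59.5 with control siRNA (log2 fold change -1.34, limma adjusted p = 5.04e-17), and its inhibitor SPINT1 (-0.74) and the junction scaffold TJP3 (-0.91) were lower too. CDH3 did not pass (0.05), and EPCAM passed at 0.14 (adjusted p = 0.0215) but not with equal totals or quantile normalization.

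The corepressors and turnover enzymes of the SNAI and ZEB proteins numbered 27 tested, 8 called higher and 3 lower (40.7% called, against 51.8% of all tested genes; median 0.03; 6 higher and 9 lower with equal library totals). EZH2, the histone methyltransferase of Polycomb repressive complex 2, averaged 892 ± 80.7 normalized counts with FOXA1 siRNA and 575 ± 14.6 with control siRNA (log2 fold change 0.63, limma adjusted p = 2.88e-08). The kinase PAK1 (0.59) and the ubiquitin ligase subunit FBXL14 (0.55) were higher. The kinases PRKD1 (-0.92), CSNK1A1 (-0.40) and GSK3B (-0.39) were lower; GSK3B phosphorylates SNAIL and marks it for degradation. SNAIL protein was not measured.

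TGF-beta induces FN1, TGFBI and the EMT factors in many epithelia. Of 19 tested TGF-beta ligands, receptors and SMADs, 3 were called higher and 9 lower (26.8% and 25% of all tested genes were; median -0.16). With equal library totals 2 were higher and 13 lower, beside 19.5% and 32.3% of all tested genes. PMEPA1, a feedback inhibitor and common TGF-beta target, had 334, 316 and 283 normalized counts with FOXA1 siRNA, against 710, 661 and 685 with control siRNA (log2 fold change -1.14, limma adjusted p = 2.52e-12). TGFB3 (-0.77, adjusted p = 0.00258) and the inhibitory SMAD6 (-0.73) were lower, and the ubiquitin ligase SMURF2 (0.52) and the corepressor SKI (0.34) were higher. The receptor TGFBR2 did not pass (0.11, adjusted p = 0.0682).

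Of 34 other mesenchymal and matrix genes, 15 fell under the minimum, 5 of them without a read. Of the 19 tested, 3 were called higher and 7 lower (52.6% called, against 51.8% of all tested genes; median -0.19). SPARC, a matricellular protein, averaged 14113 ± 193 normalized counts with FOXA1 siRNA and 12055 ± 386 with control siRNA (log2 fold change 0.23, limma adjusted p = 5.50e-05), but did not pass with quantile normalization (0.08). Tenascin TNC was higher (1.02), as was the actin regulator CALD1 (0.15), whose call was lost when totals were equalized (0.05, adjusted p = 0.376) or values quantile-normalized (0.08, adjusted p = 0.176), and the collagen genes COL6A1 (-0.82), COL1A1 (-0.52) and COL5A1 (-0.35) were lower.

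A partial EMT program has been reported for head and neck squamous carcinoma cells, and VIM and TGFBI belong to it. Of its other genes 32 were tested, 15 called higher and 10 lower (78.1% called, against 51.8% of all tested genes; median 0.12). As for the epithelial genes, the 51.8% is not matched for level. With equal library totals 15 were higher and 12 lower (median 0.02), and with quantile normalization 12 and 11 (median 0.04). The integrin subunit ITGB1 averaged 12076 ± 592 normalized counts with FOXA1 siRNA and 6078 ± 112 with control siRNA (log2 fold change 0.99, limma adjusted p = 3.15e-16), and tropomyosin TPM1 (1.02) was higher. The urokinase gene PLAU (-0.93), SEMA3C (-0.96) and CAVIN3 (-1.0) were lower.

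The receptors and partners of the marker proteins gave 7 higher and 5 lower of 18 tested (66.7% called, against 51.8% of all tested genes; median -0.03; 5 and 7 with equal library totals). ITGB1, given above, is the beta chain of the main fibronectin receptor, and its partner chain ITGA5 did not pass (-0.05). Transglutaminase TGM2, a fibronectin-binding crosslinker, had 207, 201 and 187 normalized counts with FOXA1 siRNA, against 58, 64.6 and 58.6 with control siRNA (log2 fold change 1.70, limma adjusted p = 5.26e-11). Beta-catenin CTNNB1, which binds cadherins, was also higher (0.50, adjusted p = 7.65e-10). Tensin TNS1 (-0.73), ITGB6 (-0.70) and ITGA3 (-0.31) were lower.

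**Figure D5:**
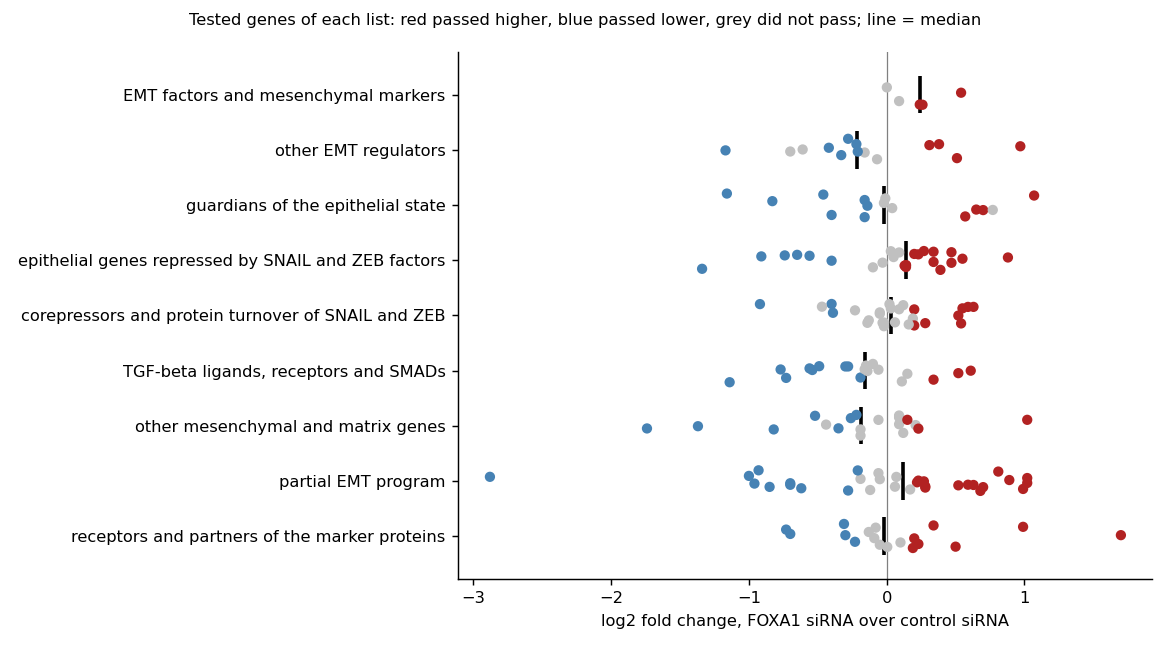
Log2 fold change of FOXA1 siRNA over control siRNA for the tested genes of the 9 lists plotted, the cell type marker lists left out (points; red, called higher; blue, called lower; grey, not called; black line, median). Each plotted list but the first held genes called in both directions, and the plotted medians ran from -0.21 to 0.24.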

How the data were processed

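Per the labels' protocols, library preparation used an NEBNext Ultra RNA kit. HISAT2, DESeq2 and the builds GRCh38 and GRCm38 are named in the submitters' processing notes without versions or roles; the counting tool and strand setting are not given in the sources used here. Per the file headers, the deposited values are normalized signal, a gene count divided by a library size factor, beside the authors' log2 fold change, test score and p-value. Of 61862 lines, 3 malformed ones were left out. All values were whole reads to within 0.01, so reads could be recovered.

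Groups came from the sample titles. limma 3.58.1 (R 4.3.3; trend and robust options) was fitted on log2(normalized count + 1) over the 18460 genes with a mean of at least 10, with Benjamini-Hochberg adjustment at 0.05; fold changes of low genes are understated. Tests on simulated data of this comparison called 25 of 50 genes changed by 1.25-fold and 42 of 50 by 1.5-fold. Among the 18460 genes simulated, 11 unchanged ones were called. Far fewer genes were changed in the simulation than were called in the data, and all had a mean of at least 50. These rates therefore need not hold for the data, or for a gene as low as CDH2. Alternatives were pseudocounts, filters, scalings, a replicate block, leaving out each library, edgeR 4.0.16 and DESeq2 1.42.0. Genes and lists were chosen with earlier results of these data known. From each list up to 3 genes called higher and 3 lower, by size of change and with a mean of at least 50, were named, beside CDH1, CDH3, EPCAM, OVOL1, OVOL2, GRHL2, ESRP1, ESRP2 and TGFBR2 whatever their result (others of that rule are not reported here); ITGA5 and genes with no reads were added after their values were seen.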

Additional observations from a re-analysis of the deposited data

How the results depend on the processing

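The direction and call of FN1 held in 17 of 17 alternatives, and edgeR and DESeq2 on the recovered reads called the same 3 genes. For SNAI2 the DESeq2 adjusted p was 0.0487, close to the threshold. TGFBI did not pass with quantile normalization (0.06). SNAI2 did not pass with equal library totals (0.16), at a threshold of 0.01 (0.26), or without FOXA1 siRNA replicate 3 or control siRNA replicate 3 (0.21 each; 0.21 to 0.30 over the libraries left out). The sign of genes that did not pass turned: TWIST1 with equal totals (-0.01) and between -0.04 and 0.17 over libraries left out, and CDH2 with DESeq2 (-0.03), edgeR (-0.04), equal totals (-0.09), a pseudocount of 5 (-8.4e-05) and between -0.12 and 0.14 over libraries left out. Log2 ratios ranged over libraries left out from -0.03 to 0.22 for CDH2 over CDH1, -0.13 to 0.17 for SNAI2 over SNAI1 and -0.63 to 0.18 for FN1 over VIM, which was 0.24 with a pseudocount of 5. Guardians called fell from 11 to 7 at a threshold of 0.01, where all genes called fell from 9571 to 7498. With no filter, 1 leukocyte marker passed, against 0. The cause of these changes was not tested.

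Libraries with the same replicate number showed no shared deviation from their group means (correlations of -0.01, 0.011 and -0.011). The titles give only replicate numbers, so whether the cultures were paired is not known. With the replicate number as a block 9332 genes were called, against 9571, and the calls of FN1, TGFBI and SNAI2 held. Depth limits SNAI1, ZEB1, ZEB2 and VIM, which had at most 13 reads in any library.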

Other observations

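Some cadherin and keratin values belong to none of the comparisons above. CDH5, the cadherin of endothelial junctions, had 288, 298 and 278 normalized counts with FOXA1 siRNA, against 565, 560 and 537 with control siRNA (log2 fold change -0.94, limma adjusted p = 1.14e-10), and the groups did not overlap. The other endothelial markers PECAM1, VWF, KDR and TIE1 were under the minimum of 10, and KDR had no read. Of the 8 squamous epithelial markers, 3 were called higher and 2 lower (62.5% called, against 51.8% of all tested genes, a share not matched for level). KRT17 averaged 11743 ± 796 with FOXA1 siRNA and 5826 ± 103 with control siRNA (1.01, adjusted p = 7.00e-16), SFN was higher (1.14), and KRT5 (-0.18) and TP63 (-0.40) were lower.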
